A study of Drosophila melanogaster with 12 samples.

Results

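The serotonin genes described here were 6 rows of a head RNA-seq count table that holds 17075 genes and transposon families. They were the receptors 5-HT1A, 5-HT1B, 5-HT2A and 5-HT7, the serotonin transporter SerT, and Trh, the neuronal tryptophan hydroxylase. They were chosen by their symbols, with their RNA-seq values under glial and neuronal expression of human TDP-43 already known. Their RNA-seq levels and fold changes are therefore descriptions, with no test. The small RNA libraries were not used in choosing them, and there each test is given.

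Serotonin is made from tryptophan in a few groups of neurons by Trh and the decarboxylase Ddc, and is loaded into vesicles by Vmat. After release it acts on G protein-coupled receptors and is taken back up by SerT. In the fly, 5-HT1A and 5-HT1B couple to inhibitory G proteins and lower cyclic AMP, 5-HT7 raises cyclic AMP, and the 5-HT2 receptors act through phospholipase C and calcium. The system is known for its part in sleep, feeding, aggression, learning and circadian timing.

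All RNA came from heads, and the RNA-seq flies were 8–10 days post-eclosion. The stocks were backcrossed for at least 5 generations to a w1118 strain, with the strain given as 2U in the labels. Repo > hTDP-43 flies (labelled Repo/TDP43, libraries S05 and S06) expressed the human transgene in glia through Repo-Gal4. ELAV > hTDP-43 flies (labelled Elav/TDP43, S11 and S12) expressed it in neurons through ELAV-Gal4. The control, hTDP-43 / + (labelled TDP43/2U, S14 and S15), carried the transgene with no Gal4 driver, so the driver insertion and the expression of hTDP-43 cannot be told apart in a comparison with it. Both drivers were compared with the same pair of control libraries. Small RNA came from 3 Repo > hTDP-43 libraries (S22 to S24) and 3 libraries of Repo / + (labelled Repo/2U, S19 to S21), which carried the glial driver without hTDP-43. The 2 RNA-seq libraries per genotype were made independently from populations of animals, and the hTDP-43 transgene itself was not analysed here.

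The RNA-seq libraries held 22476024 to 41150009 counts and the small RNA libraries 31074082 to 37736599. Levels are given as CPM, counts scaled to the size of the library, after TMM scaling over the 6 RNA-seq libraries, which sets the bulk of the genes to no change. Each log2 fold change stands beside the standard error (SE) of the edgeR fit. A gene was called where its adjusted p was under 0.05 over all features tested. Neither exon lengths nor a per-length scale was used, so levels are compared between genotypes and not between genes. All 6 serotonin genes passed the filter on low counts in each comparison.

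With glial hTDP-43, the inhibitory receptors 5-HT1B and 5-HT1A were at 41.2% and 67.5% of the control, and the other 4 genes lay closer to it. With neuronal hTDP-43, 5-HT7 was lower and Trh higher than in the control, in both libraries, and neither was called. The called serotonin genes with Repo > hTDP-43 were 2 of 6, both lower, where 27.8% of all 13507 tested features were called in either direction, 15.3% higher and 12.5% lower. With ELAV > hTDP-43, edgeR called 0 of 6, where 0.927% of all features were called. DESeq2 also called 0, and 1 of the 6 had an unadjusted p under 0.05. Since these values were known when the genes were chosen, nothing is read from the counts.

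5-HT1B, an inhibitory receptor expressed in clock and mushroom body neurons, had the largest difference of the 6 genes with glial hTDP-43. Its levels were 13.0 and 13.4 CPM in the Repo > hTDP-43 libraries (430 and 322 counts). They were 29.1 and 30.6 CPM in the ELAV > hTDP-43 libraries (1029 and 799 counts) and 31.9 and 32.8 CPM in the controls (998 and 1252 counts). Both glial libraries lay far below the other 4, while the neuronal libraries lay just below the controls. The log2 fold change was -1.28 (SE 0.101) with Repo > hTDP-43 and -0.11 (SE 0.102) with ELAV > hTDP-43. Among all tested features, 1.67% had a lower log2 fold change than 5-HT1B with the glial driver.

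5-HT1A, the other inhibitory receptor, showed the same order of genotypes with a smaller difference. It was at 57.7 and 56.9 CPM with Repo > hTDP-43, at 89.3 and 81 CPM with ELAV > hTDP-43, and at 78.2 and 93 CPM in the controls. The glial libraries did not overlap the others, and the neuronal libraries fell inside the range of the controls. The log2 fold change was -0.57 (SE 0.111) with Repo > hTDP-43 and -0.0062 (SE 0.117) with ELAV > hTDP-43. For 5-HT1A, 9.43% of tested features had a lower log2 fold change with the glial driver. Its call was lost when either glial library was left out, at -0.59 without S05 and -0.56 without S06, whereas 5-HT1B was called in each of 10 alternative fits.

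**Figure D1:**
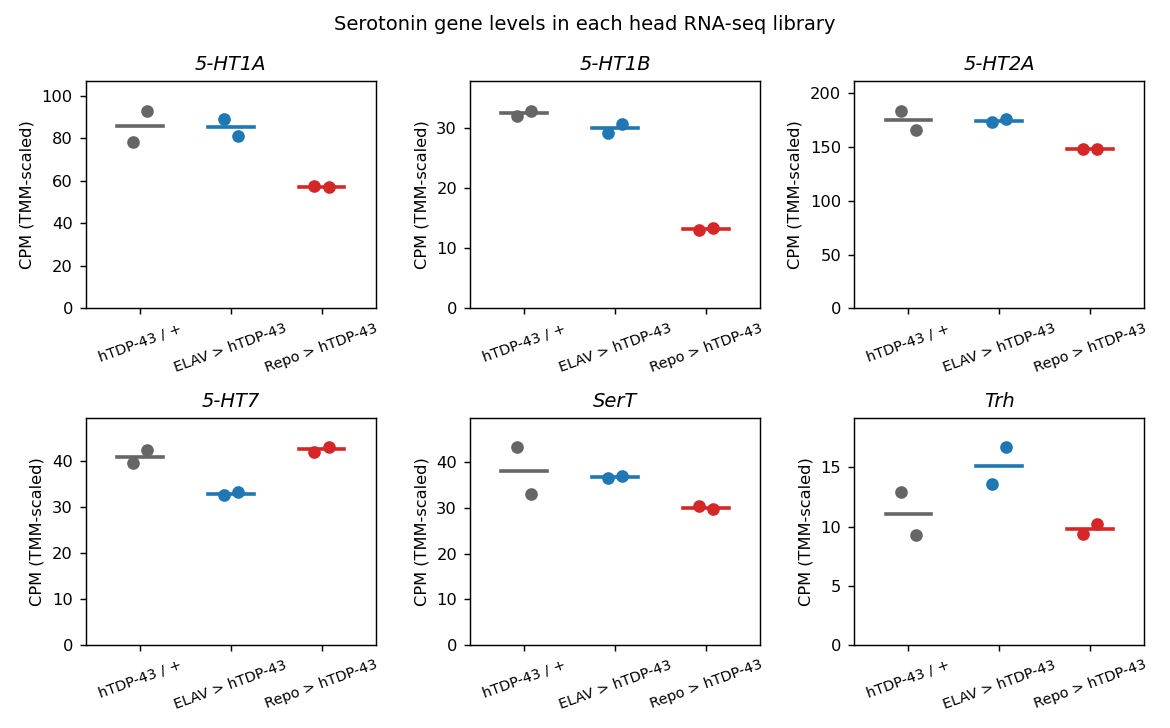
Levels of the 6 serotonin genes in each of the 6 head RNA-seq libraries. The y axis gives CPM after TMM scaling, from 0, points are libraries, and bars are the means of 2 libraries per genotype. The Repo > hTDP-43 libraries of 5-HT1B lay at 13.0 and 13.4 CPM, below 29.1 CPM, the lowest of the other libraries, while for 5-HT7 the ELAV > hTDP-43 libraries were the lowest.

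The receptors of the other coupling classes differed less. 5-HT2A, which signals through phospholipase C, was at 148 CPM in both Repo > hTDP-43 libraries, at 173 and 176 CPM with ELAV > hTDP-43, and at 184 and 166 CPM in the controls. The glial libraries were the lowest, and the neuronal ones fell within the controls. The log2 fold changes were -0.23 (SE 0.0833) for the glial and -0.0029 (SE 0.0964) for the neuronal driver, and neither was called.

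5-HT7, the receptor that raises cyclic AMP, had another order. It was at 42.1 and 43 CPM with Repo > hTDP-43, at 32.7 and 33.2 CPM with ELAV > hTDP-43, and at 39.5 and 42.5 CPM in the controls. The neuronal libraries were the lowest, and the glial libraries overlapped the controls. The log2 fold change was 0.065 (SE 0.0906) with the glial and -0.31 (SE 0.101) with the neuronal driver.

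SerT, which clears serotonin from the synapse and marks serotonergic neurons, was at 30.4 and 29.7 CPM with Repo > hTDP-43 and at 36.6 and 37.1 CPM with ELAV > hTDP-43. The controls held 43.3 and 33.1 CPM, and their own log2 gap of 0.39 was wider than the difference of either driver from their mean. The log2 fold changes were -0.33 (SE 0.132) and -0.049 (SE 0.142). The glial libraries lay below both controls, and the neuronal libraries lay between them.

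Trh, the rate-limiting enzyme of serotonin synthesis in neurons, had the lowest counts of the 6, from 244 to 480 per library. It was at 9.36 and 10.2 CPM with Repo > hTDP-43, at 13.6 and 16.7 CPM with ELAV > hTDP-43, and at 12.9 and 9.26 CPM in the controls. The neuronal libraries were the highest and the glial libraries fell within the controls. The log2 fold changes were -0.16 (SE 0.185) for the glial and 0.46 (SE 0.197) for the neuronal driver. The row is tryptophan hydroxylase, named Trhn in the Release 6 annotation, and not trachealess, which has a row of its own.

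In all, 4 of the 6 genes had both Repo > hTDP-43 libraries beyond both controls, where 69% of all tested features did. With ELAV > hTDP-43 this held for 3 of 6, where 37.1% of features did. The median log2 fold change of the 6 genes was -0.28 with the glial driver, beside 0.0023 over all features, and -0.028 with the neuronal driver, beside 0.00056. TMM set these medians: without it, scaling by library size alone moved the median of all features to 0.17 with the glial driver. Under that scaling the signs of the 6 glial fold changes were kept, 5-HT1A was at -0.4 and 5-HT7 at 0.23.

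**Figure D2:**
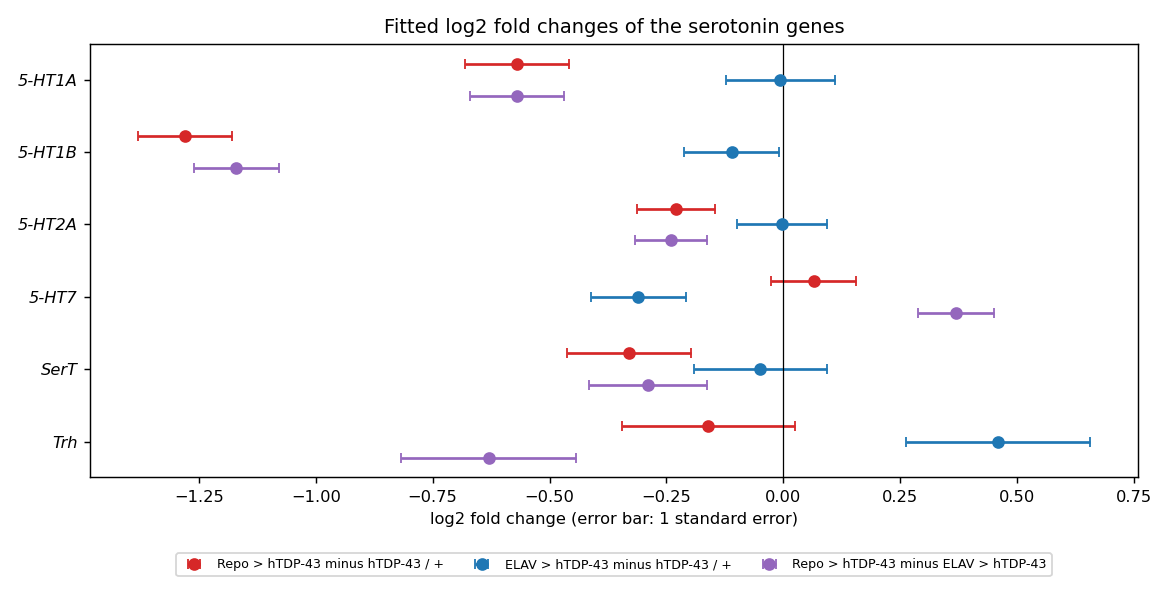
Log2 fold changes of the 6 serotonin genes (x axis) in 3 comparisons, with bars of 1 standard error from edgeR. 5-HT1B was the farthest from 0 with Repo > hTDP-43, at -1.28, and the neuronal fold changes ran from -0.31 for 5-HT7 to 0.46 for Trh.

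The drivers were also compared directly, with all 6 libraries fitted together. As above, these values were known when the genes were chosen, and nothing is read from the 4 of 6 past the threshold, where 24% of all features were. 5-HT1B at -1.17 (SE 0.0909), 5-HT1A at -0.57 (SE 0.101) and Trh at -0.63 (SE 0.187) were lower with the glial driver, and 5-HT7 was higher at 0.37 (SE 0.0813). Trh was past the threshold in 5 of 12 alternatives, and not with library size alone or the upper quartile. 5-HT2A at -0.24 (SE 0.0767) and SerT at -0.29 (SE 0.126) were not called. For Trh and 5-HT7 the neuronal libraries lay outside the controls and the glial ones overlapped them.

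Neuronal markers moved with the glial driver as well. A list of 8 (elav, nSyb, Syt1, brp, Syn, Rdl, para and Appl) summed to 6820 and 7080 CPM in the Repo > hTDP-43 libraries, 9010 to 9370 CPM with ELAV > hTDP-43 and 8820 to 10600 CPM in the controls. With the glial driver 6 of the 8 were called lower, where 12.5% of all features were, with a median log2 fold change of -0.47. With the neuronal driver the median was -0.035. The marker lists were chosen with earlier results of these data known. In bulk heads, fewer cells of a type and less RNA per cell cannot be told apart.

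Taken per 1000 CPM of these neuronal markers, 5-HT1B stayed lowest with glial hTDP-43. It was at 1.91 and 1.9 there, at 3.11 and 3.39 with ELAV > hTDP-43 and at 3.62 and 3.1 in the controls, a log2 difference of -0.82 from the controls. For 5-HT1A most of the difference was gone on this scale, with 8.47 and 8.04 in the glial, 9.53 and 8.99 in the neuronal and 8.87 and 8.81 in the control libraries, a log2 difference of -0.1. 5-HT7 was higher with glial hTDP-43 than in the controls, at 6.17 and 6.08 against 4.48 and 4.03, a log2 difference of 0.53. For 5-HT2A, SerT and Trh the glial and control libraries overlapped on this scale, with log2 differences of 0.23, 0.14 and 0.31. These ratios are descriptions, and no cell number was measured.

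**Figure D3:**
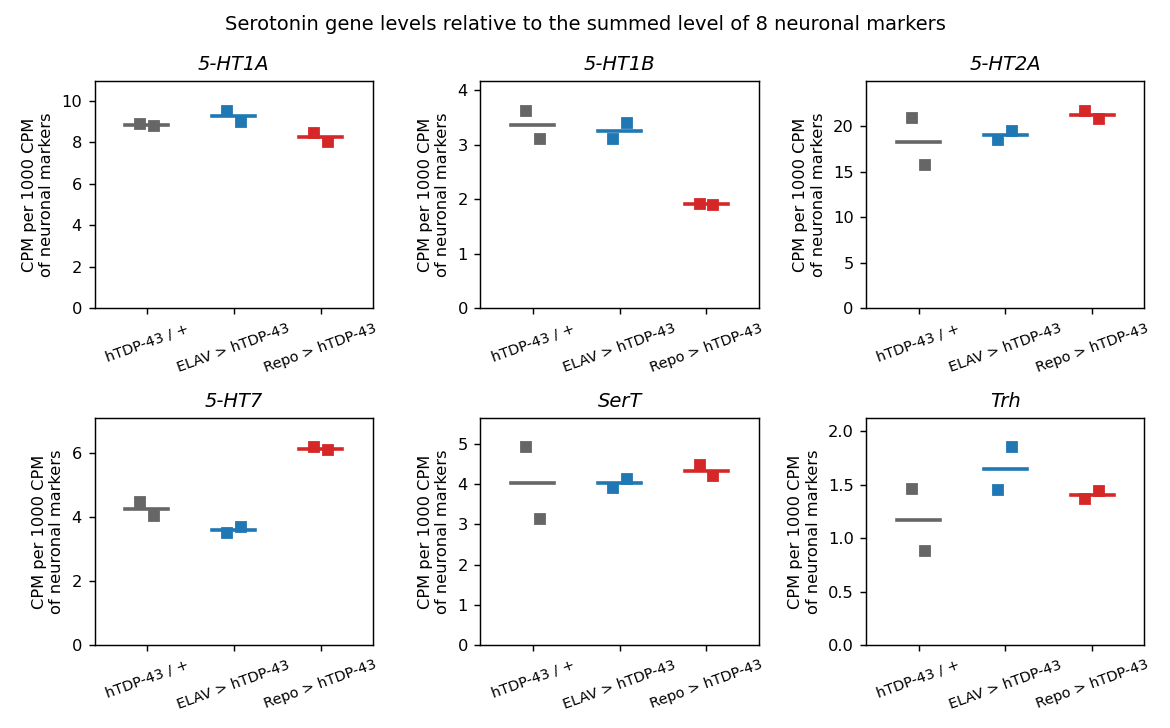
CPM of each serotonin gene per 1000 CPM of the 8 neuronal markers summed, by library, with y axes from 0 and bars for the means of 2 libraries. The Repo > hTDP-43 libraries of 5-HT1B (1.91 and 1.9) stayed below the controls, those of 5-HT7 (6.17 and 6.08) lay above them, and those of 5-HT1A lay close to them.

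Markers of other tissues moved too, where 15.3% of all features were called higher and 12.5% lower with the glial driver. In the glial comparison, all 9 testis markers were called higher, summing to 68.5 to 111 CPM against 13.3 to 26.7 CPM in the controls, as were 3 of 7 gut markers (51.5 to 93.5 against 11.8 to 27.3 CPM) and 4 of 6 hemocyte markers (688 to 777 against 468 to 522 CPM). Photoreceptor markers were lower in 4 of 8 (26300 to 27000 against 29600 to 36000 CPM) and fat body markers in 4 of the 6 tested (11700 against 17400 to 19200 CPM). The fat body list included the yolk protein genes Yp1, Yp2 and Yp3. The paper reports that most glial hTDP-43 flies that leave the pupal case are male. The sex of the RNA-seq flies is not stated, and its part in these values was not tested. Of 8 glial markers 2 were higher and 3 lower, at 1570 to 1620 against 1740 to 2030 CPM. With the neuronal driver at most 1 marker per list was called in each direction, where 0.927% of all features were called. Its testis markers summed to 27 to 50.1 CPM, above the controls, with a median log2 fold change of 0.9. Its fat body markers summed to 14200 to 16100 CPM, below them, but their median was 0.13, with 1 called in each direction. Its glial markers summed to 2070 to 2180 CPM, above the controls, with a median of 0.18. No marker was at 0 in all libraries. The part of these markers in the serotonin gene values was not tested.

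The genes whose profiles lay nearest to each serotonin gene were found among 11203 genes with a mean of at least 1 CPM, by the Euclidean distance between log2 CPM profiles over the 6 libraries, each centred on its own mean. The nearest were CG43902 (0.0514) and Mid1 (0.0592) for 5-HT1A, and CG4408 (0.112) and CG8974 (0.127) for 5-HT1B. For 5-HT2A they were Pfk (0.047), the phosphofructokinase of glycolysis, and CG11537 (0.0522). For 5-HT7 they were eco (0.118), an acetyltransferase of sister chromatid cohesion, and CG15027 (0.125), and for SerT CG2277 (0.0777) and CG14186 (0.0968). Trh had the most distant nearest genes, CG5590 (0.184) and ATPsynB (0.192), a subunit of the mitochondrial ATP synthase. None of these was another serotonin gene. Among the 6 themselves the closest pair was 5-HT2A and SerT, at 0.189, and the farthest was 5-HT1B and 5-HT7, at 1.68.

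The receptor genes 5-HT1A and 5-HT1B lie close together on chromosome arm 2R, separated by 3 protein-coding genes in the Release 6 annotation: CG15115, Gpxl and CG15109. The gene order was read from that annotation and the counts were made on dm3, so no positions are given. No values are given for CG15115 and Gpxl. CG15109, the nearest tested gene on the inner side of both receptors, was called higher with the glial driver. Its log2 fold change was 2.23 (SE 0.317), opposite to both receptors. On their outer sides the nearest tested genes were CG15117, beside 5-HT1A, at -0.12 (SE 0.0977) and tn, beside 5-HT1B, at -0.24 (SE 0.101). Neither was called. Genes that overlap a member share part of its locus, and whether the counting used strand is not given in the sources used here. Among genes tested with the glial driver, they were Ir56a at 5-HT1A, CG43351 at 5-HT1B, CG31008 and CG31007 at 5-HT7, and CG13912 at Trh. None was called with either driver.

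A list of 50 other genes of serotonin synthesis, handling and signalling was measured beside the 6. It was chosen with earlier results of these data known. Its counts and adjusted p-values are therefore descriptions and no independent test of the pathway. With glial hTDP-43, 24 of the 47 tested were called by edgeR with adjustment over all features, 20 lower and 4 higher, and 23 were not called. Over all features 27.8% were called, 12.5% lower and 15.3% higher. The median log2 fold change of the list was -0.33, beside 0.0023 over all features. With neuronal hTDP-43, 3 of 46 tested were called, 2 lower and 1 higher, where 0.927% of all features were, with a median of -0.072. These were Pu, t and w. DESeq2 called 4 there, and 6 had an unadjusted p under 0.05. Leaving out S05 left 5 genes called with the glial driver and leaving out S06 left 8, and each of the 24 kept its sign in all 10 alternatives. With library size alone 19 were called, 13 lower and 6 higher, while over all features the share of called features that were higher went from 54.9% to 75.1%.

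5-HT2B, the second phospholipase C-coupled receptor and the only serotonin receptor gene outside the 6, was at 31.7 and 34.1 CPM with Repo > hTDP-43, 42.6 and 43.7 CPM with ELAV > hTDP-43 and 40.8 and 42.5 CPM in the controls. With the glial driver the fitted log2 value was -0.33 (SE 0.0914, adjusted p = 0.0407). The call held in 5 of 10 alternatives and was lost with library size alone, the upper quartile, at least 10 counts in every library, and without S05 or S06.

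Both enzymes listed for synthesis were called lower with the glial driver, where 12.5% of all features were. Ddc, the decarboxylase shared with dopamine synthesis, was at 148 and 159 CPM, and the controls held 254 and 244 CPM, a log2 difference of -0.69 (SE 0.0809, adjusted p = 0.0038). The call was lost without S05. Hn, phenylalanine hydroxylase, was at 182 CPM in both glial libraries and at 288 and 268 CPM in the controls, which is -0.6 on the log2 scale (SE 0.0786, adjusted p = 0.0053), and was not called without S05 or S06. With the neuronal driver Ddc was at -0.047 (SE 0.0889) and Hn at -0.1 (SE 0.114), neither called.

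Of the 5 genes for tetrahydrobiopterin, the cofactor of Trh, 2 were called lower with the glial driver, where 12.5% of all features were. Pu, GTP cyclohydrolase, the first enzyme of that pathway, was at 76.4 and 71.1 CPM with Repo > hTDP-43, at 141 CPM in both ELAV > hTDP-43 libraries and at 221 and 248 CPM in the controls. The 3 genotypes did not overlap. Pu fell by 1.66 on the log2 scale with the glial driver (SE 0.101, adjusted p = 0.000448) and by 0.74 with the neuronal driver (SE 0.0978, adjusted p = 0.027). The glial call held in all 10 alternatives, and the neuronal call was lost without S11 or S12.

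Vmat, the vesicular monoamine transporter, fell with the glial driver. Its libraries held 240 and 258 CPM and the controls 462 and 480 CPM, a log2 difference of -0.91 (SE 0.0859, adjusted p = 0.00176), called in all 10 alternatives. With the neuronal driver it was at 442 and 393 CPM, or -0.17 on the log2 scale (SE 0.098), not called. Vmat is not particular to serotonin cells, and its level here is the sum over all cells of the head.

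Of the 9 genes listed for inactivation, 6 were tested with the glial driver, of which 2 were called higher and 1 lower. Over all features 15.3% were called higher and 12.5% lower. The gene called lower was the acetyltransferase AANAT1 (older name Dat), at a mean of 69.6 CPM against 99.2 CPM in the controls. Its log2 fold change was -0.5 (SE 0.1, adjusted p = 0.016) with the glial and -0.022 (SE 0.103) with the neuronal driver. The glial enzyme ebony (e), which joins β-alanine to biogenic amines, rose to 109 and 107 CPM, where the controls held 43.9 and 46.9 CPM (log2 fold change 1.26, SE 0.0859, adjusted p = 0.000598). With the neuronal driver it was at 46.8 and 51.1 CPM and was not called. The hydrolase tan (t), which undoes that conjugation for histamine and dopamine, was at 293 and 302 CPM with the glial driver, 134 and 127 CPM with the neuronal driver and 238 and 235 CPM in the controls. For the glial driver this was 0.34 on the log2 scale (SE 0.0764, adjusted p = 0.0212), a call lost without S05 or S06. For the neuronal driver it was -0.85 (SE 0.0901, adjusted p = 0.00949), a call lost without S11 or S12.

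**Figure D4:**
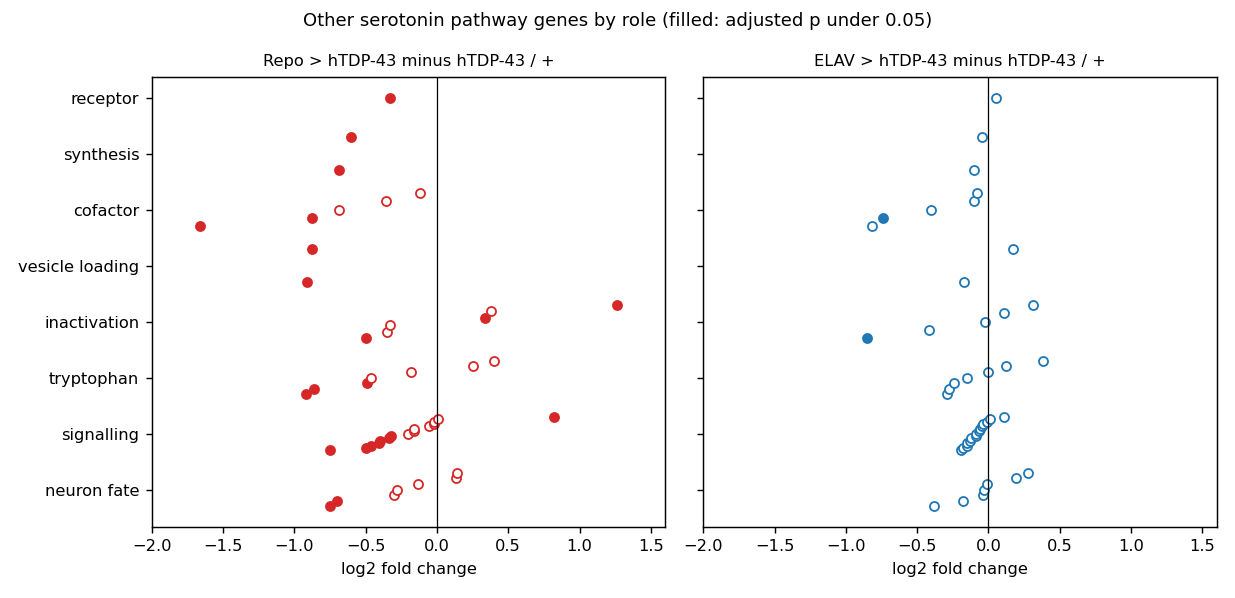
Log2 fold changes of the tested pathway genes by role, for each driver against hTDP-43 / +. Filled points had an adjusted p under 0.05, and w (6.57 and 4.83) and the acetyltransferase Nat1, listed apart from the roles, are left out. With the glial driver 20 filled points lay below 0, the lowest being Pu at -1.66, and with the neuronal driver 2 did.

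Among 8 genes of tryptophan transport and use, 3 were called lower and 1 higher with the glial driver. Over all features 12.5% were called lower and 15.3% higher. White (w), an ABC transporter subunit that carries pigment precursors, tryptophan among them, rose most. It was at 233 and 244 CPM with Repo > hTDP-43, 73.5 and 70.4 CPM with ELAV > hTDP-43 and 2.59 and 2.46 CPM in the controls, log2 fold changes of 6.57 (SE 0.106) and 4.83 (SE 0.123). Fly transgenes are commonly marked with a copy of w, the stocks were in a w1118 background, and the controls lacked a driver insertion. How much of w came from a marker was not tested. Of the transporter genes brown (bw) and scarlet (st), also listed, st was at -0.46 (SE 0.155) with the glial driver and was not called. Brown was called lower, at 25.4 and 25.7 against 50.1 and 43.5 CPM (log2 fold change -0.86, SE 0.0986, adjusted p = 0.0035). The amino acid transporter mnd was also lower, at 13 and 12.6 against 24.4 and 24.5 CPM (log2 fold change -0.92, SE 0.106, adjusted p = 0.00356). Both calls were lost without S05.

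Downstream of the receptors, 8 of 15 signalling genes were called with the glial driver, 7 lower and 1 higher, where 27.8% of all features were called and 12.5% called lower. Of the 7 lower calls, 5 were lost with library size alone, 4 of these with the upper quartile too, and all 7 without S05 and without S06. The one that rose was Galphai, an inhibitory G protein subunit to which receptors of the 5-HT1 class couple. It was at 51.5 and 52.3 CPM with Repo > hTDP-43, at 25.6 and 26.3 CPM with ELAV > hTDP-43 and at 28.4 and 30.8 CPM in the controls. The glial driver's log2 value was 0.82 (SE 0.092, adjusted p = 0.00323). It was called in all 10 alternatives. Galphao, another subunit of the inhibitory class, was among the 7 lower, at a mean of 349 CPM against 499 CPM in the controls. Its log2 fold change was -0.5 (SE 0.128, adjusted p = 0.0314), a call lost with library size alone and the upper quartile. Of 7 transcription factors of serotonergic neuron fate, 2 were called lower with the glial driver, or 28.6%, a share close to the 27.8% of all features called.

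The small RNA table gave counts for 168 exon and intron rows of the 6 genes, among 285351 rows in all. Small RNAs of these lengths, 18 to 29 nt, include miRNAs, siRNAs and piRNAs, and reads in exons and introns can also be fragments of longer RNAs. Rows of different isoforms repeat the same counts. Of the 168 rows, 14 passed the filter on low counts, with 9 distinct sets of counts, and 1 was called between Repo > hTDP-43 and Repo / +, where 9.04% of all 28127 tested rows were. SerT and Trh had no row tested, with at most 9 and 7 counts in any row and library.

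The called row was the intron numbered 1 of 5-HT1A. It held 289, 125 and 741 counts in the Repo / + libraries and 73, 51 and 67 in the Repo > hTDP-43 libraries. The groups did not overlap, and S21 held the most by far. The fitted log2 value was -2.71 (SE 0.487, adjusted p = 0.00672). It was -1.86 without S21 and still called. This row made up 83.3% to 97.5% of the intron counts of 5-HT1A in Repo / + and 65.4% to 71.3% in Repo > hTDP-43. The table does not give a strand for exon and intron rows or say how reads with several alignments were counted. Among genes tested in the glial RNA-seq comparison, only Ir56a overlaps 5-HT1A in Release 6. Untested genes at the locus were not looked at.

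Summed over 1 transcript per gene, the introns of 5-HT1A held 111, 78 and 94 counts with glial hTDP-43 against 305, 150 and 760. The log2 fold change was -2.24 (SE 0.435, adjusted p = 0.0114). This sum contains the called row, which held most of its reads, so it is not a separate result. No other intron row of 5-HT1A was tested. The intron numbered 3 held 16, 10 and 10 counts against 4, 8 and 4, and that numbered 5 held 10, 8 and 4 against 5, 9 and 8. Of all sums tested, 8.18% were called. The exons of 5-HT1A held 57, 33 and 42 counts against 53, 31 and 56, with a log2 value of -0.27 (SE 0.177, adjusted p = 0.446), so no difference was detectable there. The exons of 5-HT1B were at 0.091 (SE 0.259, adjusted p = 0.887), and its introns held too few reads to test. None of the other sums of the 6 genes was called.

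**Figure D5:**
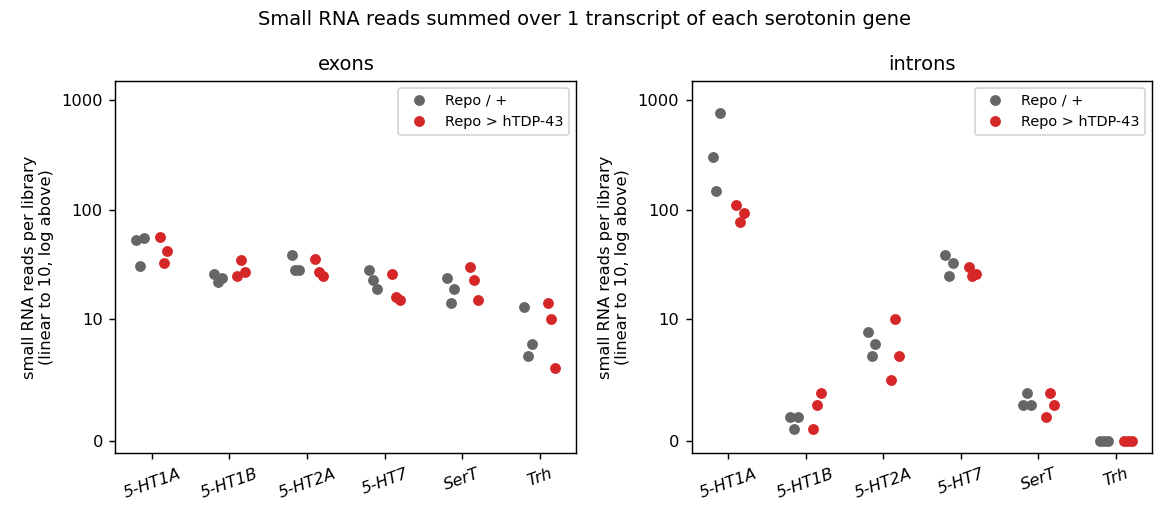
Small RNA reads summed over the exons (left) and introns (right) of 1 transcript of each serotonin gene, in 3 Repo / + and 3 Repo > hTDP-43 libraries. The y axis is linear to 10 and logarithmic above. The introns of 5-HT1A held 150 to 760 reads in Repo / + and 78 to 111 in Repo > hTDP-43, most of them in the intron numbered 1. The groups overlapped for the exons of 5-HT1A.

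Other small RNA rows shared the profile of the 5-HT1A intron. The nearest, by the same distance over the 6 small RNA libraries, were an intron of px (0.227) and exons of Fign (0.386), CG12880 (0.447) and ArgRS (0.602), followed by antisense reads of the retrotransposon baggins (0.627). The baggins antisense row held 587, 272 and 2072 counts in Repo / + and 241, 159 and 154 in Repo > hTDP-43, and its log2 value was -2.54 (SE 0.551, adjusted p = 0.017). In each of these rows S21 was the highest of the 6 libraries. They were looked for after the 5-HT1A row had been seen, and what they share beyond the profile was not tested.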

How the data were processed

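RNA-seq libraries from heads were made by the authors for 3 genotypes with 2 libraries each, and small RNA libraries for 2 genotypes with 3 each. The authors removed ribosomal reads, mapped to dm3 with STAR (up to 4 mismatches and 100 alignments per read) and used TEtranscripts to count reads on RefSeq genes and on transposons from FlyBase. The deposited values are whole-number counts without normalization. The small RNA counts per feature were made by the authors with Bowtie and bedtools on dm3, for reads of 18 to 29 nt. Tool versions and the strand setting are not given in the sources used here. Reads carry no molecular identifiers, and 0 table columns were left unused.

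Counts were tested in R 4.3.3 with edgeR 4.0.16 (TMM, filterByExpr with a minimum count of 10, quasi-likelihood test, Benjamini-Hochberg adjustment at 0.05 over all features). SE is the log2 fold change divided by the root of its F statistic. Each driver was fitted with the control in 4 libraries, the drivers against each other in 6, and the small RNA in 6. P-values set a difference against the spread between these libraries, which edgeR estimates for each feature with help from all the others. Log2 CPM for profile distances used a prior count of 2. Scripts were tested on simulated data.

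The serotonin genes, the pathway list and the marker lists were chosen with earlier results of these data known. The rule for named genes took the 6 serotonin genes, 5-HT2B, Ddc, Hn and Vmat, up to 6 called pathway genes per comparison by adjusted p, and the 2 nearest profiles per gene. Neighbouring genes were named for their position. AANAT1, Galphao and the small RNA rows near the 5-HT1A intron were named after their values were seen. Small RNA rows were matched to genes by transcript (279953 of 281279 exon and intron rows). Alternatives were library size alone, upper quartile, DESeq2 1.42.0, no filter, at least 10 counts in every library, the other choice of libraries in the fit, and leaving out each library. For small RNA they were the column total or the mapped reads given by the study as library size, DESeq2, at least 10 counts in every library, leaving out each library, and sums per transcript. The sums, and all alternatives for the pathway list, were added after the data were seen. Gene names and order came from RefSeq Release 6.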

Additional observations from a re-analysis of the deposited data

Results flagged for a closer look

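The 6 serotonin genes were chosen with their values under both drivers known, so their differences between the glial and the neuronal driver are descriptions. On the log2 scale, glial minus neuronal, the 4 past edgeR's threshold were 5-HT1B at -1.17, Trh at -0.63, 5-HT1A at -0.57 and 5-HT7 at 0.37. Leaving out a glial or a neuronal library left 1 or 2 of the 4 past it, 5-HT1B among them each time. Trh was also not called with library size alone, the upper quartile or at least 10 counts in every library, and was called in 5 of 12 alternatives.

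For 11 named genes of the pathway, AANAT1 and Galphao apart, edgeR's test of the glial against the neuronal driver passed the threshold. Most of them were named because they had been called, so nothing is read from this count. Of the whole list, 22 of 47 tested were called, 17 lower and 5 higher, where 24% of all features were. Lower with the glial than with the neuronal driver were mnd at -1.32 (adjusted p = 0.000129), Pu at -0.93 (adjusted p = 0.000362), Vmat at -0.75 (adjusted p = 0.000947), Ddc at -0.65 (adjusted p = 0.000941), bw at -0.59 (adjusted p = 0.00783), Hn at -0.51 (adjusted p = 0.00904) and 5-HT2B at -0.39 (adjusted p = 0.0128). Higher were w at 1.73 (adjusted p = 2.46e-05), t at 1.19 (adjusted p = 5.44e-05), e at 1.14 (adjusted p = 0.000133) and Galphai at 1 (adjusted p = 0.000257). The 5-HT2B call held in 6 of 12 alternatives and was lost with library size alone, the upper quartile and each glial or neuronal library left out. The Hn and bw calls held in 9 of 12, each lost without S05 and S06, and Hn also without S12 and bw without S11. The other 8 held in all 12. The difference for t joins a rise with one driver and a fall with the other, at 0.34 and -0.85 against the controls.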

How the results depend on the processing

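Among the serotonin genes, 5-HT1B was called lower with the glial driver in all 10 alternatives (-1.33 to -1.11) and 5-HT1A in 8 of 10 (-0.72 to -0.4). The number called, 2, ranged from 1 to 4 when a library was left out: SerT at -0.51 and 5-HT2A at -0.3 were added without S15, and 5-HT1A was lost without S05 or S06. With the neuronal driver the number, 0, ranged from 0 to 2, with 5-HT7 at -0.37 and Trh at 0.71 called without S14. Between the drivers it was 4 and ranged from 1 to 6. The pathway counts ranged, in the same fits, from 5 to 30 for the glial driver, 1 to 5 for the neuronal driver and 10 to 27 between the drivers. Without S14, 5-HT7 turned to -0.022 and Trh to 0.051 with the glial driver, at the ends of ranges up to 0.13 and down to -0.38 over the libraries left out. With the neuronal driver 5-HT1A turned to 0.035 with library size alone, 0.0092 with the upper quartile, 0.046 without S12 and 0.13 without S15, and was -0.13 without S14. 5-HT2A turned to 0.034, 0.01 and 0.0039 with library size alone, the upper quartile and no filter, and to 0.075 without S14, with -0.075 without S15. SerT turned to 0.15 without S14, with -0.23 without S15, and a small RNA exon row of 5-HT1B to -0.24 without S23, with 0.42 without S22. The cause was not tested. The features called in all changed in the same fits, from 552 without S05 to 6421 without S14 for the glial driver against 3761, and from 32 without S11 to 1056 without S14 for the neuronal driver against 120. DESeq2 called 305 there. Among small RNA rows 2542 were called, 1013 with at least 10 counts in every library and 1203 with DESeq2, and the 5-HT1A intron was the 1 serotonin row called in each alternative. A fit that leaves 1 library in a group takes its spread from the other group. Trh had 244 to 480 counts per library and a log2 gap of 0.47 between its controls. In the small RNA, 14 of the 168 serotonin rows passed the filter on low counts. No paired analysis was possible because the genotypes share no replicate names.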
